A study of Mus musculus with 12 samples.

Results

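Immediate early genes are transcribed within minutes of a stimulus from factors already present in the cell, and their RNAs and proteins are usually short-lived. The first to respond encode transcription factors such as Fos, Jun and Egr1, and other members of the same wave encode proteins that switch the response off again. MTR4 is an RNA helicase that feeds transcripts into the exosome, which shortens or destroys them before they leave the nucleus. Described here are 10 immediate early genes of the 23235 genes in the deposited table, chosen by symbol: the transcription factor genes Fos, Jun, Junb, Atf3 and Egr1, the immediate early response genes Ier2 and Ier5, and the feedback genes Dusp1, Btg2 and Zfp36. All 10 were in the table, and 7 passed the filter on low values (Ier5, Fos and Jun did not).

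The libraries came from mouse oocytes at day 14, which were separated by micromanipulation into nucleus and cytoplasm. Each of 4 groups had 3 libraries: Mtr4-null nucleus, WT nucleus, Mtr4-null cytoplasm and WT cytoplasm, with 10 nuclei or 10 cytoplasms pooled per library. The labels give no treatment. How Mtr4 was removed, the strain and whether libraries came from separate mice are not given in the labels. P-values therefore weigh differences against library-to-library spread alone, part or all of which may be technical.

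Promoter sequence is shown for 3 members whose values recur in the results. Dusp1 and Btg2 had the most similar pattern of any pair over the libraries. Junb had a higher FPKM in every Mtr4-null library than in every WT library of the same compartment. In the nuclei, its lowest Mtr4-null and its highest WT value both rest on an estimated 2.9 fragments. The windows run from 250 bases before to 50 bases after the start of each gene (RefSeq, build GRCm38.p6). Capitals mark the cyclic AMP response element TGACGTCA, the site of the CREB and ATF transcription factors, and the TATA box sequence TATAAA.
Dusp1, chr17:26508423-26508722, minus strand: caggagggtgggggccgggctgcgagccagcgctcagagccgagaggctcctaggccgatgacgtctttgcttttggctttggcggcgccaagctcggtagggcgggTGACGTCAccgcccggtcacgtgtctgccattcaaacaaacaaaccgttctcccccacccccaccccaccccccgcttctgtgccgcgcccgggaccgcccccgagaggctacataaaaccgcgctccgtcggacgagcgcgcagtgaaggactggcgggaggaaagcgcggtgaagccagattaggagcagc
Btg2, chr1:134079106-134079405, minus strand: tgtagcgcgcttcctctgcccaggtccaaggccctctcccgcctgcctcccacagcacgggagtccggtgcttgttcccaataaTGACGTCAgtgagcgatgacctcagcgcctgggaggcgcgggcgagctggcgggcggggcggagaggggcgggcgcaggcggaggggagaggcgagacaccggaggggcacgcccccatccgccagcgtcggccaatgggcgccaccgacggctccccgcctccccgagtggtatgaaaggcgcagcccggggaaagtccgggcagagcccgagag
Junb, chr8:84978699-84978998, minus strand: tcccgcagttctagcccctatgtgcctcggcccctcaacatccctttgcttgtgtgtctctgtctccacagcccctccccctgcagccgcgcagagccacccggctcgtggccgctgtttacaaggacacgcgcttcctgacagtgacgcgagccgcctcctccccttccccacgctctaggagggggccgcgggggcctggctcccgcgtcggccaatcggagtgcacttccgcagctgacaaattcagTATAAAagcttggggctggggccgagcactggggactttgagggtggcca

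RefSeq windows were matched for 8 of the 10 members, without Ier2 and Egr1. On either strand, TGACGTCA was found in the windows of 2 members, Dusp1 and Btg2, and in 1.79% of 32851 windows of the table. TATAAA was found in those of Fos and Junb and in 13.6% of all windows. The shorter TGACG, which is contained in TGACGTCA, was in 5 members and 20.8% of all windows. The Sp1 sequence GGGCGG was in 7 members and 35.7% of all windows, the AP-1 site TGANTCA in 0 members and 7.81%, and the CArG box of serum response factor in Zfp36 and 1.63%. These matches describe the letters of the windows only.

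Levels are FPKM, which scale fragments to transcript length and to the mapped fragments of a library, so they can be compared between genes per length. Depth was estimated from the steps between the lowest FPKM values, which gave 1780000 to 5460000 fragments in the nuclei labelled Mtr4-null, 1970000 to 2390000 in the WT nuclei, 7160000 to 15600000 in the Mtr4-null cytoplasms and 13800000 to 21500000 in the WT cytoplasms. Scarna2, a small Cajal body RNA, made up 58.0 to 81.7% of all FPKM in each nucleus and no more than 5.13% in a cytoplasm. Skiv2l2, the gene of MTR4, measured 1.04, 0.315 and 0.70 FPKM in cytoplasms of Mtr4-null oocytes, against 21.1, 19.4 and 20.2 FPKM in those of WT oocytes. It was at 7.98, 0.182 and 1.12 FPKM in the nuclei labelled Mtr4-null, against 6.06, 2.45 and 5.37 FPKM in those of WT. Replicate 1 of the nuclei labelled Mtr4-null thus goes against its label. Replicate 3 of the same label had a Spearman correlation of 0.93 across genes with Mtr4-null cytoplasm replicate 1 and of 0.79 with WT nucleus replicate 1. Results on nuclei that rest on them are also given without them. All 14 oocyte markers reached 1 FPKM in every cytoplasm, summing to 11264 to 17494 FPKM in Mtr4-null and 12881 to 13293 FPKM in WT.

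**Figure D1:**
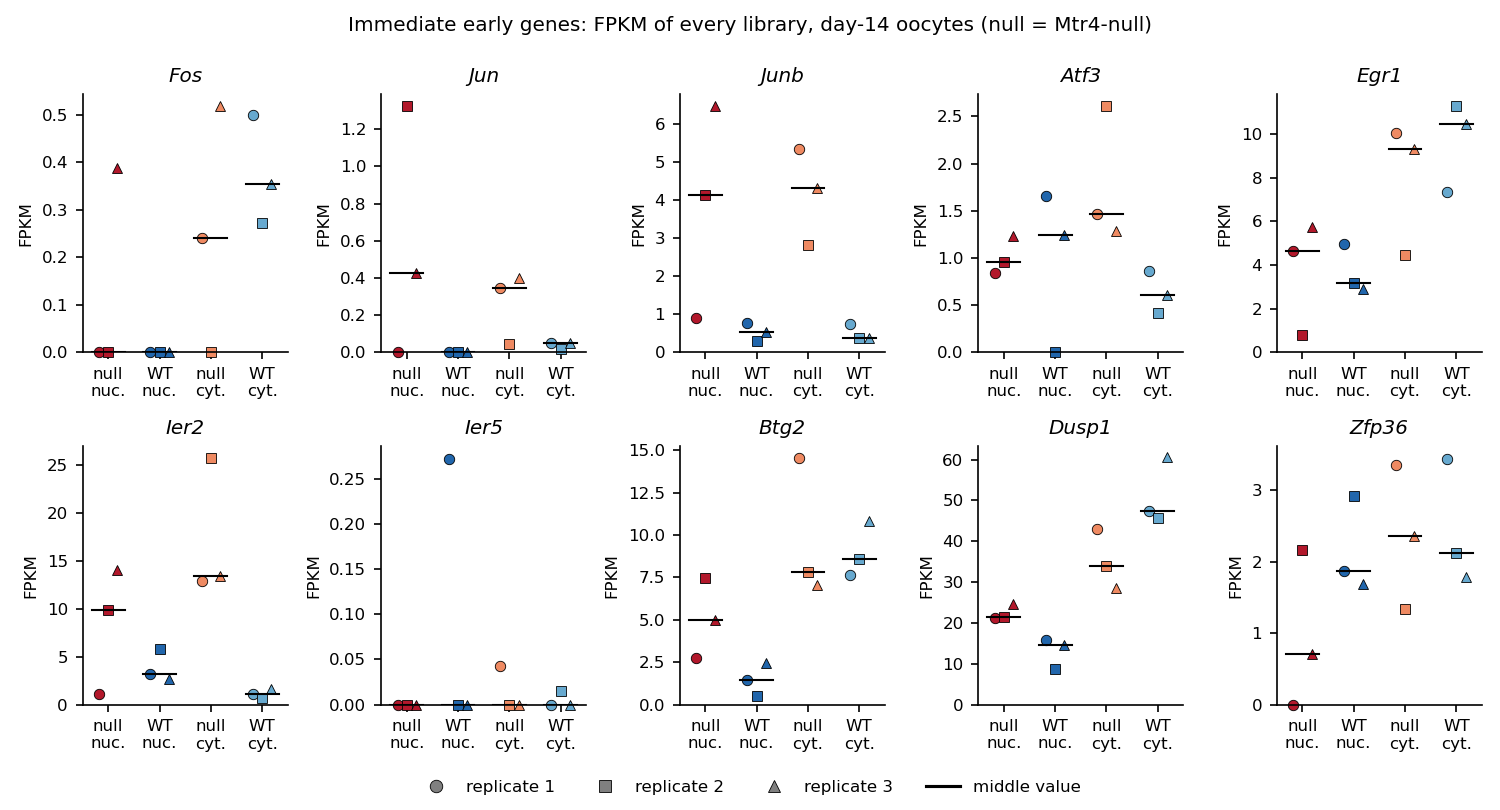
FPKM of the 10 immediate early genes in each of the 12 libraries, on a linear axis from 0 for each gene; points are libraries, marker shape gives the replicate number, and the line is the middle of the 3 values. Ier2 and Junb are higher in every Mtr4-null cytoplasm than in every WT cytoplasm, and Fos, Jun and Ier5 are near 0 throughout.

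Dusp1, which encodes the dual-specificity phosphatase that inactivates MAP kinases, was the most abundant member in all 4 groups. Its mean stood at the 83.6 percentile of the genes tested in nuclei labelled Mtr4-null, the 76 percentile in WT nuclei, the 80.1 percentile in Mtr4-null cytoplasms and the 86.7 percentile in WT cytoplasms. The order of the others depended on the group. In WT cytoplasm, Egr1 (9.71 ± 2.08 FPKM, SD, n = 3) and Btg2 (9.02 ± 1.65 FPKM) followed with overlapping values, and Ier2 (1.13 ± 0.465 FPKM) was the fifth. In Mtr4-null cytoplasm, Ier2 was the second at 17.3 ± 7.24 FPKM, followed by Btg2 and Egr1, whose values again overlapped. In bulk libraries, a change in RNA per cell cannot be told apart from a change in the share of cells that hold it.

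Fos, Jun and Ier5 were at the lower limit of the libraries. Fos, the AP-1 partner of the Jun proteins, was at 0, 0 and 0.387 FPKM in nuclei labelled Mtr4-null, listed at 0 in all 3 WT nuclei, at 0.240, 0 and 0.518 FPKM in Mtr4-null cytoplasms and at 0.50, 0.272 and 0.354 FPKM in WT cytoplasms. The WT cytoplasm values correspond to an estimated 13, 11 and 13 fragments. Its Mtr4-null and WT cytoplasms overlapped. Ier5, whose product takes part in the heat shock response, was above 0 in 3 of 12 libraries, at no more than 0.273 FPKM or an estimated 2.0 fragments. Jun, the founding AP-1 subunit, was at 0, 1.32 and 0.429 FPKM in the nuclei labelled Mtr4-null and listed at 0 in all 3 WT nuclei. In the cytoplasms, Jun was at 0.347, 0.0469 and 0.401 FPKM in Mtr4-null and at 0.0487, 0.0156 and 0.0518 FPKM in WT. These are an estimated 16.0, 1.0 and 10.9 fragments against 2.0, 1.0 and 3.0, and the groups overlapped at the low end. These 3 genes were not tested, since they did not reach 1 FPKM in 3 libraries, and 3 fragments of Fos would amount to 0.663 to 0.806 FPKM in a WT nucleus.

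The first comparison asks which of these RNAs change in the cytoplasm when MTR4 is missing. Ier2 rose: its mean stood at the 63.2 percentile of the genes tested in Mtr4-null cytoplasm, against the 17.2 percentile in WT cytoplasm. It was the only member called, against 1.88% of the 13157 genes tested that were called in either direction and 1.17% called higher. Junb and Atf3 were also higher and Dusp1 lower in every Mtr4-null cytoplasm than in every WT cytoplasm, without passing the test. Groups that did not overlap were thus found for 4 of the 7 members, against 43.9% of all genes tested. Of these, 3 were higher, against 23.0% of all genes, and 1 was lower, against 20.9%.

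Ier2 encodes a short-lived nuclear protein of the growth factor response. It was at 12.9, 25.7 and 13.4 FPKM in Mtr4-null cytoplasms, against 1.10, 0.672 and 1.60 FPKM in WT cytoplasms. Every Mtr4-null library lay above every WT library. The estimated fragments were 260.5, 239.4 and 160.7 in Mtr4-null and 19.8, 18.8 and 40.5 in WT. On the log2(FPKM + 1) scale, which understates the change of low genes, the fold change was 3.06 ± 0.59 (SE; limma, adjusted p = 0.015). The fit of all 4 groups takes part of its spread from the nuclei, and in a fit of the 6 cytoplasms alone the adjusted p was 0.0032. The call was lost in the fit of 4 groups without Mtr4-null cytoplasm replicate 2 (adjusted p = 0.086) or 3 (0.052), and without WT cytoplasm replicate 1 (0.061), 2 (0.091) or 3 (0.055), with fold changes from 2.76 to 3.22. In the cytoplasms alone it held without any of the 6 libraries (adjusted p from 0.0045 to 0.022).

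Junb, an AP-1 subunit that often opposes Jun, was at 5.34, 2.82 and 4.32 FPKM in Mtr4-null cytoplasms, against 0.755, 0.371 and 0.378 FPKM in WT cytoplasms. The groups did not overlap. Its log2 fold change of 1.76 ± 0.43 had a limma adjusted p of 0.052, and of 0.0052 with the cytoplasms alone. It was called in the fit of 4 groups without replicate 1 (adjusted p = 0.0050; 3.98% of all genes called), 2 (0.041; 3.75%) or 3 (0.017; 4.67%) of the nuclei labelled Mtr4-null, which enter through the shared spread. Leaving out any single cytoplasm or WT nucleus from that fit did not give a Junb call (adjusted p up to 0.23). Atf3, a stress-induced factor of the ATF and CREB family, was at 1.46, 2.60 and 1.29 FPKM in Mtr4-null against 0.861, 0.421 and 0.610 FPKM in WT cytoplasms (log2 fold change 0.75 ± 0.36, limma adjusted p = 0.42; 0.047 with the cytoplasms alone). The cytoplasms alone thus called 3 members higher, Ier2, Junb and Atf3, in a fit that called 23.2% of all genes and 13.3% of all genes as higher.

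The remaining transcription factor, Egr1, a zinc finger protein, was at 10.1, 4.44 and 9.32 FPKM in Mtr4-null cytoplasms and 7.35, 11.3 and 10.5 FPKM in WT cytoplasms. The groups overlapped (log2 fold change -0.31 ± 0.48, limma adjusted p = 0.94). Of the feedback genes, Dusp1 was at 43.0, 34.0 and 28.6 FPKM in Mtr4-null, against 47.4, 45.8 and 60.6 FPKM in WT cytoplasms. The Mtr4-null libraries were the lower ones, by a log2 fold change of -0.54 ± 0.31 (limma adjusted p = 0.55; 0.082 with the cytoplasms alone). Btg2, an antiproliferative cofactor of mRNA deadenylation, was at 14.5, 7.82 and 7.06 FPKM in Mtr4-null and 7.62, 8.60 and 10.8 FPKM in WT (log2 fold change 0.06 ± 0.42). Zfp36, or tristetraprolin, which binds AU-rich elements and brings mRNAs to decay, was at 3.36, 1.34 and 2.37 FPKM in Mtr4-null and 3.45, 2.12 and 1.78 FPKM in WT (log2 fold change -0.06 ± 0.42). For Btg2 and Zfp36 the genotypes overlapped. The median over the 7 members was 0.06, beside 0.00 over all genes tested.

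Summed markers of follicle cells, which surround the oocyte, did not overlap between the genotypes. In the fit of 4 groups, limma called 0 of the 6 granulosa and 0 of the 3 theca and stroma markers tested. With the cytoplasms alone it called 3 of the 6 and 2 of the 3 lower, and 0 higher. That fit called 9.85% of all genes lower and 13.3% higher. The summed level of 18 granulosa cell markers was 30.3 to 43.5 FPKM in Mtr4-null cytoplasms against 64.7 to 80.7 FPKM in WT cytoplasms. Between 5 and 6 of the 18 reached 1 FPKM in a cytoplasm, and Krt18 was listed at 0 in all 6. The levels came mostly from Nr5a2, with means of 18.6 FPKM in Mtr4-null and 28.5 FPKM in WT, and Gata4, with means of 8.83 and 27.2 FPKM. The defining marker Foxl2 had the higher mean in Mtr4-null, at 0.248 FPKM against 0.0791 FPKM in WT. Amh was at 0.266, 0.191 and 0.520 FPKM in Mtr4-null cytoplasms, against 0.192 and 0.0352 FPKM in a pair of WT cytoplasms and a listed 0 in the other. The summed level of 14 theca and stroma markers was 1.29 to 1.86 FPKM in Mtr4-null and 3.61 to 5.69 FPKM in WT cytoplasms. In WT it came mostly from Nr2f2 and Pdgfrb, with means of 1.45 and 1.33 FPKM, against 0.735 and 0.0895 FPKM in Mtr4-null. Star, Cyp17a1 and Vim had the higher mean in Mtr4-null. Star was at 0.510, 0.699 and 0.171 FPKM in Mtr4-null cytoplasms, against 0.0573, 0.0736 and 0.162 FPKM in WT cytoplasms. Both sums were lower in Mtr4-null, and the part of follicle cells in the results was not tested.

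**Figure D2:**
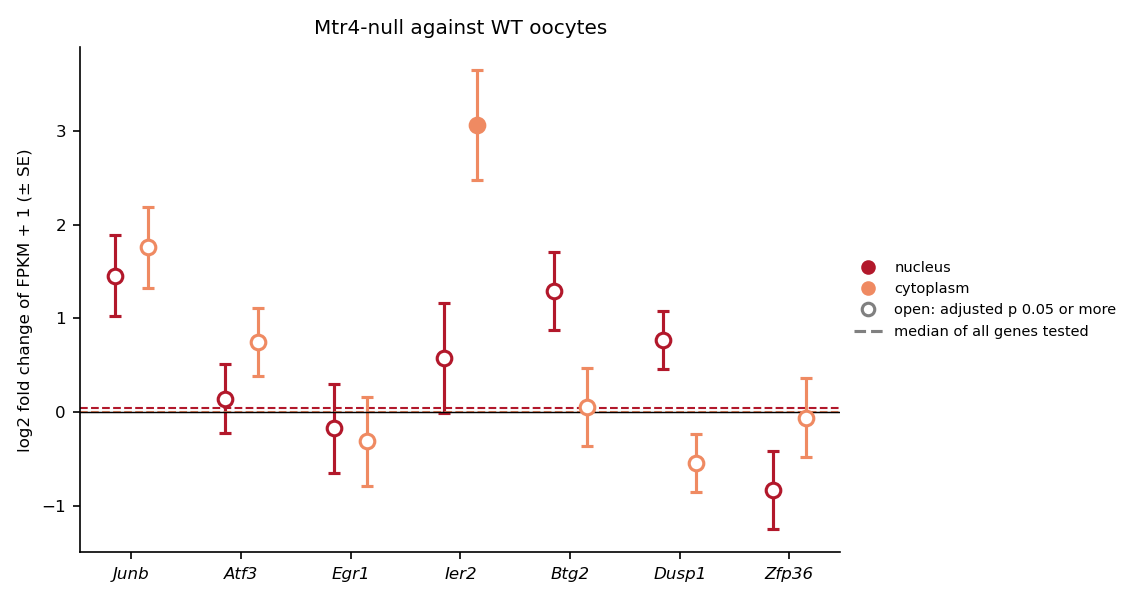
Log2 fold changes of Mtr4-null against WT on the log2(FPKM + 1) scale for the 7 members tested, in nucleus (red) and cytoplasm (orange); bars are standard errors, filled points passed an adjusted p of 0.05 and dashed lines are the medians of all genes tested. Ier2 in the cytoplasm, at 3.06, is the only filled point, and Dusp1 and Btg2 lie higher in the nucleus than in the cytoplasm.

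The same question was asked of the nucleus, with shallower libraries. No member was called between nuclei labelled Mtr4-null and WT nuclei by limma, against 2.26% of all genes. Junb, Btg2 and Dusp1 were higher in all 3 nuclei labelled Mtr4-null than in all 3 WT nuclei. Groups without overlap were thus found for 3 of 7 members, all higher, against 12.9% of all genes in either direction and 6.22% higher. For Junb and Btg2, the closest Mtr4-null and WT nuclei are not told apart by their estimated fragments, given below. The nuclei alone called 0 members as well, with 0.0380% of all genes called.

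Junb was at 0.908, 4.14 and 6.48 FPKM in nuclei labelled Mtr4-null, against 0.766, 0.310 and 0.536 FPKM in WT nuclei. Replicate 1 of the Mtr4-null label lay close to the WT nuclei and the others well above them. The WT values rest on an estimated 1.0 to 2.9 fragments, and Mtr4-null replicate 1 on 2.9. That replicate and WT replicate 1 are thus not told apart by their fragments. Its log2 fold change of 1.46 ± 0.43 had a limma adjusted p of 0.085. Btg2 was at 2.75, 7.44 and 5.01 FPKM in nuclei labelled Mtr4-null, against 1.45, 0.529 and 2.44 FPKM in WT nuclei. Here too replicate 1 was the lowest of its label (log2 fold change 1.30 ± 0.42, limma adjusted p = 0.11). For Btg2, that replicate and WT replicate 3 both rest on an estimated 14.0 fragments, and WT replicate 2 on 2.6. Dusp1 was at 21.1, 21.4 and 24.7 FPKM in nuclei labelled Mtr4-null, against 15.9, 8.76 and 14.6 FPKM in WT nuclei. Its 3 Mtr4-null values lay close together above the WT range (log2 fold change 0.77 ± 0.31, limma adjusted p = 0.20).

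Ier2 was at 1.13, 9.84 and 14.0 FPKM in nuclei labelled Mtr4-null, against 3.17, 5.78 and 2.66 FPKM in WT nuclei. Replicate 1 lay below all WT nuclei and the other 2 above them (log2 fold change 0.58 ± 0.59, limma adjusted p = 0.66). The estimated fragments of Ier2 were 3.0, 22.8 and 99.6 in nuclei labelled Mtr4-null and 9.9, 14.8 and 7.9 in WT nuclei. The place of replicate 1 below the WT nuclei thus rests on few fragments. Without replicate 1, which goes against its label by Skiv2l2, limma called Junb (log2 fold change 2.02, adjusted p = 0.0027), Btg2 (1.60, 0.031) and Ier2 (1.44, 0.044), in a fit that called 10.2% of all genes. Dusp1 was then at 0.81 (adjusted p = 0.17). Without replicate 3, limma called no member, with 2.97% of all genes called. In that fit Ier2 was at 0.03 (adjusted p = 0.98), Junb at 1.04 (0.16), Btg2 at 1.26 (0.13) and Dusp1 at 0.70 (0.17). Without replicates 1 and 3, which leaves 1 nucleus assumed to vary like the other groups, it called Junb and Btg2 higher and Egr1 lower (-1.36, adjusted p = 0.041), with 30.1% of all genes called.

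The other members overlapped between the nuclei. Egr1 was at 4.66, 0.786 and 5.73 FPKM in nuclei labelled Mtr4-null and 4.95, 3.19 and 2.91 FPKM in WT nuclei (log2 fold change -0.17 ± 0.48). Atf3 was at 0.839, 0.955 and 1.24 FPKM in nuclei labelled Mtr4-null and 1.65, 0 and 1.24 FPKM in WT nuclei (log2 fold change 0.15 ± 0.36). Zfp36 was at 0, 2.17 and 0.702 FPKM in nuclei labelled Mtr4-null and 1.87, 2.93 and 1.69 FPKM in WT nuclei (log2 fold change -0.83 ± 0.42, limma adjusted p = 0.31). The summed granulosa cell markers were 21.4 to 35.1 FPKM in nuclei labelled Mtr4-null and 25.4 to 39.9 FPKM in WT nuclei, and the theca and stroma markers 2.89 to 5.89 and 5.34 to 40.7 FPKM, the highest in WT nucleus replicate 2. Their part in the results was not tested.

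Whether the effect of MTR4 loss differed between the compartments was tested as the fold change in the nucleus minus that in the cytoplasm. No member was called by limma, against 0.122% of all genes. For Ier2 the difference was -2.48 ± 0.83 (unadjusted p = 0.0090, adjusted p = 0.27), with fold changes of 0.58 in the nucleus and 3.06 in the cytoplasm. For Dusp1 it was 1.31 ± 0.44 (unadjusted p = 0.0091, adjusted p = 0.27), with fold changes of 0.77 in the nucleus and -0.54 in the cytoplasm. For Btg2 it was 1.24 ± 0.59 (adjusted p = 0.51). Without replicate 1 of the nuclei labelled Mtr4-null, the difference was -1.62 for Ier2 (adjusted p = 0.21), with a nuclear fold change of 1.44, and 1.35 for Dusp1 (0.22) and 1.55 for Btg2 (0.26). Without replicate 3 it was -3.03 for Ier2 (adjusted p = 0.072), 1.24 for Dusp1 (0.12) and 1.21 for Btg2 (0.34). Without both it was -1.86 for Ier2 (adjusted p = 0.062), 1.25 for Dusp1 (0.078) and 1.79 for Btg2 (0.076).

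The comparison of nucleus with cytoplasm in WT oocytes gives where each RNA was found. FPKM is relative within a library, and the median of all genes tested was -0.90 on the log2 scale, so values are also given relative to it. Dusp1, Btg2 and Egr1 fell in the nucleus, which makes 3 of 7 members against 57.1% of all genes called in either direction and 45.0% called lower. The share higher among called genes was 21.1%, and 67.8% with median-of-ratios scaling, under which the median of all genes was 0.03. Dusp1 was at 15.9, 8.76 and 14.6 FPKM in WT nuclei, against 47.4, 45.8 and 60.6 FPKM in WT cytoplasms (log2 fold change -1.92 ± 0.31, limma adjusted p = 0.00046, -1.02 relative to the median). Btg2 was at 1.45, 0.529 and 2.44 FPKM in WT nuclei, against 7.62, 8.60 and 10.8 FPKM in WT cytoplasms (-2.08 ± 0.42, limma adjusted p = 0.0016, -1.19 relative to the median). Every nucleus was below every cytoplasm for both genes. Egr1 was at 4.95, 3.19 and 2.91 FPKM in WT nuclei, against 7.35, 11.3 and 10.5 FPKM in WT cytoplasms (-1.20 ± 0.48, limma adjusted p = 0.043, -0.30 relative to the median). The Egr1 call was lost without Mtr4-null cytoplasm replicate 1 or 3, any WT cytoplasm, or WT nucleus replicate 2 or 3, with adjusted p from 0.053 to 0.12.

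Ier2 had a level in WT nuclei above that in WT cytoplasms. It was at 3.17, 5.78 and 2.66 FPKM in WT nuclei, against 1.10, 0.672 and 1.60 FPKM in WT cytoplasms, and every nucleus was above every cytoplasm. In estimated fragments, Ier2 had 9.9, 14.8 and 7.9 in these nuclei and 19.8, 18.8 and 40.5 in these cytoplasms. Its log2 fold change was 1.17 ± 0.59, or 2.06 relative to the median (limma adjusted p = 0.098; 0.013 with the 6 WT libraries alone, a fit that called 13.1% of all genes as higher; 0.017 without replicate 1 of the nuclei labelled Mtr4-null). Groups did not overlap for 4 of 7 members, 1 higher and 3 lower, against 73.5% of all genes, 14.1% higher and 59.4% lower. Junb (0.03 ± 0.43), Atf3 (0.16 ± 0.36) and Zfp36 (-0.12 ± 0.42) overlapped. Fos was listed at 0 in all 3 WT nuclei, where 3 fragments would be more than its level in any WT cytoplasm.

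In Mtr4-null oocytes no member was called between nucleus and cytoplasm by limma, against 32.2% of all genes. Ier2 was at 1.13, 9.84 and 14.0 FPKM in nuclei labelled Mtr4-null, against 12.9, 25.7 and 13.4 FPKM in Mtr4-null cytoplasms (log2 fold change -1.32 ± 0.59, limma adjusted p = 0.081). Its nuclei and cytoplasms overlapped. Egr1 (-1.06 ± 0.48, adjusted p = 0.083) and Zfp36 (-0.89 ± 0.42, adjusted p = 0.094) also missed the threshold. Dusp1, at 21.1, 21.4 and 24.7 FPKM in nuclei labelled Mtr4-null against 43.0, 34.0 and 28.6 FPKM in Mtr4-null cytoplasms, did not overlap (-0.61 ± 0.31, adjusted p = 0.11; 0.29 with median-of-ratios scaling, the opposite direction). Atf3 did not overlap either (-0.45 ± 0.36, adjusted p = 0.31; 0.086 with that scaling), which makes 2 of 7 members, both lower, against 41.7% of all genes in either direction and 35.8% lower. Without replicate 3 of the nuclei labelled Mtr4-null, limma called Ier2 (-1.86, adjusted p = 0.015), Egr1 (-1.42, 0.021) and Dusp1 (-0.68, 0.049) lower, in a fit that called 64.8% of all genes. Without replicate 1, which goes against its label, no member was called and the Ier2 fold change was -0.45 (adjusted p = 0.39), against -1.32 with it. Without both replicates 1 and 3, Ier2 was at -0.69 (adjusted p = 0.22) and limma called Egr1 lower (-2.26, adjusted p = 0.0013), in a fit that called 64.4% of all genes. Without replicate 2, Egr1 was at -0.47 (adjusted p = 0.34). Btg2 (-0.84 ± 0.42) and Junb (-0.27 ± 0.43) overlapped between the compartments.

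**Figure D3:**
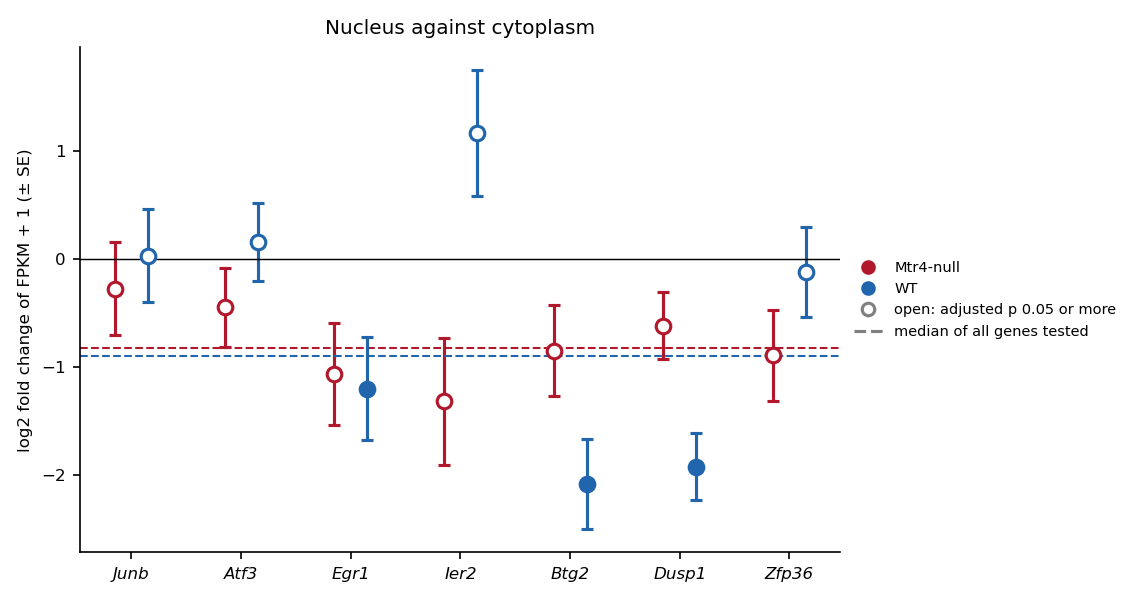
Log2 fold changes of nucleus against cytoplasm on the log2(FPKM + 1) scale for the 7 members tested, in Mtr4-null (red) and WT (blue) oocytes; bars are standard errors, filled points passed an adjusted p of 0.05 and dashed lines are the medians of all genes tested, -0.82 in Mtr4-null and -0.90 in WT. Ier2 lies at -1.32 in Mtr4-null and 1.17 in WT, and Dusp1, Btg2 and Egr1 in WT are the filled points.

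Likeness among the members was described over the 12 libraries, which also differ in group and depth. Dusp1 and Btg2, both lower in WT nuclei than in WT cytoplasms, had a Pearson correlation of 0.91 on the log2(FPKM + 1) scale. Ier2 and Junb had 0.82, and Egr1 and Dusp1 0.67. Ier2 and Egr1 had -0.23, and Zfp36 had between -0.17 and 0.21 with every other member. The genes with the pattern most like Ier2 were 1500015A07Rik and 1110005A03Rik (both 0.94), LOC629393 (0.94) and the pseudogene Cyp2c53-ps (0.93). Cyp2c53-ps was at 18.4, 15.8 and 14.0 FPKM in Mtr4-null cytoplasms, against 0.763, 0.301 and 0.332 FPKM in WT cytoplasms. These correlations are descriptions over 12 libraries.

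Ier2 and Junb also share features of their genes. Both have 1 exon, as have Ier5 and Jun, against 5.49% of 18525 annotated genes. Their transcripts are 60.9% and 62.6% G and C, at the 96.8 and 98.5 percentiles, beside a median of 49.5%. The sequence ATTTA, the core of AU-rich elements that speed mRNA decay, occurs 0 times in the Ier2 transcript, 2 times in Junb, 4 times in Dusp1 and 5 times in Btg2. Per kilobase of the whole transcript this is 0, 1.11, 2.01 and 1.82, beside a median of 0.809 over annotated genes. The other tested members had 1.51 (Atf3), 1.08 (Zfp36) and 0.669 (Egr1). Between Mtr4-null and WT cytoplasms, the 301 single-exon genes tested had 13 higher and 3 lower and a median log2 fold change of 0.38, beside 104 higher, 78 lower and a median of -0.01 over 11052 genes with annotation. These are 4.32% higher and 0.997% lower, beside 0.941% and 0.706%. Without histone and olfactory receptor genes, 240 single-exon genes had 13 higher (5.42%), 0 lower and a median of 0.43. The 71 of these 240 with a GC content of 55.9% or more, Ier2 and Junb among them, had 7 higher (9.86%), 0 lower and a median of 0.89. All 2210 genes tested of that GC content had 42 higher (1.9%), 7 lower and a median of 0.20. Ier2 and Junb lie on chromosome 8 with 23 genes between them, of which 15 were tested. Between cytoplasms, limma called 0 of the 15 (4 with the cytoplasms alone), with a median of -0.06. Junb overlaps Prdx2 and Dusp1 overlaps Ergic1 on the opposite strand, and whether strand was used in counting is not given in the sources used here.

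Among other genes of the early response, the calls between the cytoplasms were of lower levels. Of 53 further immediate and delayed early genes, 35 were tested, and between Mtr4-null and WT cytoplasms 0 were called higher and 3 lower, beside 0.714% of all genes called lower, with a median log2 fold change of -0.05 beside 0.00 over all genes. Nfkbiz, a nuclear regulator of NF-kappaB, was at 3.89, 5.07 and 5.21 FPKM in Mtr4-null cytoplasms, against 22.5, 32.7 and 24.4 FPKM in WT cytoplasms (-2.26, limma adjusted p = 0.012). Id2, an inhibitor of basic helix-loop-helix factors, was at 0.485, 1.18 and 0.407 FPKM in Mtr4-null, against 5.17, 7.6 and 6.85 FPKM in WT (-2.17, adjusted p = 0.011). Dusp4, a nuclear MAP kinase phosphatase, was at 0.262, 0.755 and 0.586 FPKM in Mtr4-null, against 5.46, 3.88 and 5.63 FPKM in WT (-1.97, adjusted p = 0.017). For all 3 genes every Mtr4-null cytoplasm was below every WT cytoplasm. In the fit of 4 groups, leaving out 1 cytoplasm ended the Dusp4 call for each of the 6 (adjusted p from 0.06 to 0.087). It ended the Nfkbiz call for each except WT replicate 1 (0.052 to 0.092), and the Id2 call for Mtr4-null replicates 1 and 3 and WT replicates 2 and 3 (0.064 to 0.081). The cytoplasms alone called 7 higher and 7 lower, beside 13.3% and 9.85% of all genes. The one with the smallest adjusted p among the higher, Csrnp1, was at 50.5, 62.2 and 49.0 FPKM in Mtr4-null and 24.8, 19.8 and 20.6 FPKM in WT (1.27, limma adjusted p = 0.0034 in that fit).

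**Figure D4:**
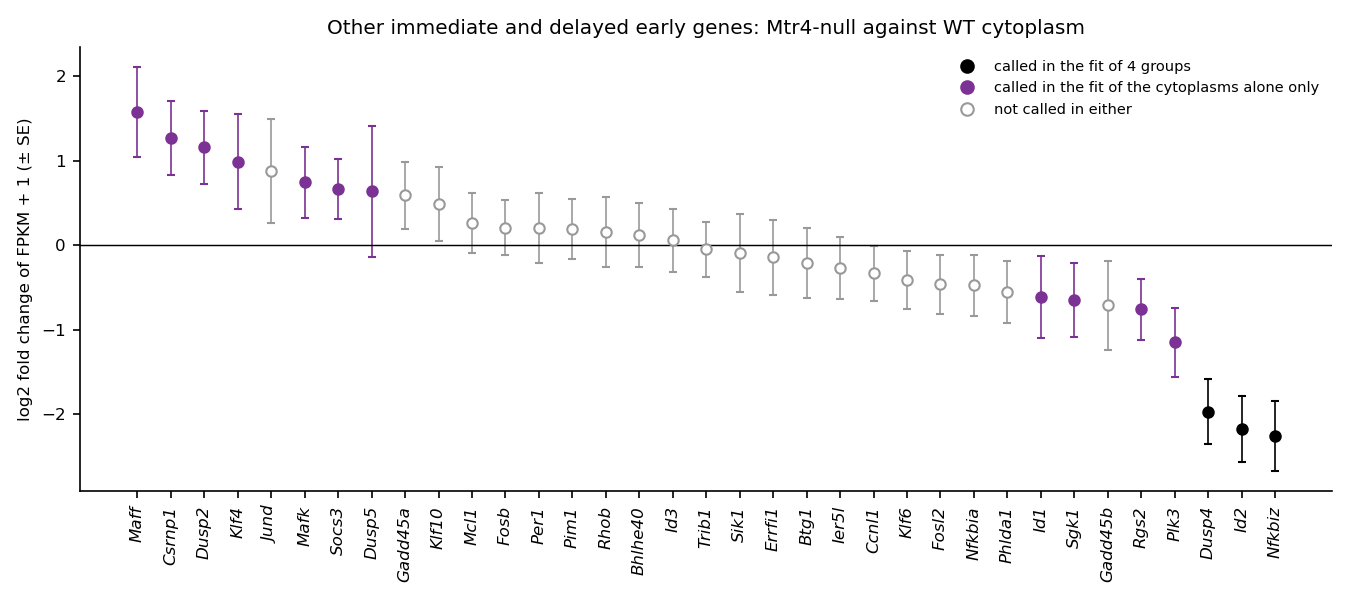
Log2 fold changes of Mtr4-null against WT cytoplasm on the log2(FPKM + 1) scale for the 35 further early response genes tested; bars are standard errors, black points were called in the fit of 4 groups, purple points with the cytoplasms alone only and open points in neither. Nfkbiz, Id2 and Dusp4 lie lowest, between -2.26 and -1.97.

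In the nucleus, 0 of these 35 genes were called between the genotypes in either direction, with a median of 0.30 beside 0.04 over all genes. Between nucleus and cytoplasm, 0 were higher and 5 lower in Mtr4-null, where 28.1% of all genes were called lower, and 0 were lower with the 6 Mtr4-null libraries alone, where 0.0912% of all genes were. In WT 0 were higher and 16 lower, beside 45.0% of all genes called lower. Of the kinases and transcription factors that act upstream of immediate early genes, 31 of 33 were tested, and 0 were called between the genotypes in either compartment, with a median of 0.04 in the nucleus and -0.08 in the cytoplasm. The 17 tested factors of AU-rich element decay and the 13 tested heat shock genes likewise had 0 called between the genotypes in the fit of 4 groups. With the cytoplasms alone, 3 upstream genes were called higher and 4 lower, beside 13.3% and 9.85% of all genes. In that fit the decay factors had 1 higher and 4 lower, and the heat shock genes 2 higher and 1 lower. The medians of the decay factors were -0.10 in the nucleus and -0.10 in the cytoplasm, and those of the heat shock genes 0.55 and -0.14. Between WT nucleus and cytoplasm, 17 upstream genes, 10 decay factors and 9 heat shock genes of those tested were lower, beside 45.0% of all genes called lower and a direction over all genes that turns with median-of-ratios scaling. Among them were the kinase gene Mapk3 (-1.81) and the chaperone gene Hspa8 (-2.06). Tia1, a decay factor, was higher (1.40).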

How the data were processed

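The authors deposited FPKM per gene for 12 libraries of total RNA after rRNA depletion. Per the submitters' processing notes, TopHat2 2.1.1, Cufflinks 2.2.1 and the mouse build mm9 were used; the annotation is not given in the sources used here. Duplicates are mentioned in the series' design, and 3 libraries per group were analysed. Values were taken as log2(FPKM + 1), genes reaching 1 FPKM in 3 or more libraries were kept (13157 of 23235), and all 4 groups were fitted with limma 3.58.1 in R 4.3.3, with a variance trend. Tests were two-sided, with Benjamini-Hochberg adjustment over all genes tested in each of 5 comparisons and a call at an adjusted p of 0.05. The procedure was tested on simulated data in which each gene had the same spread in all 4 groups. That test does not cover groups that differ in spread. Fragments were estimated from the steps between low FPKM values, so they are approximate. Depth limits low genes in the nuclei, and floors of 3 fragments cover counting error only. Exons, GC content and overlaps came from GENCODE vM21 by symbol. Members and lists were chosen with earlier results of these data known. The text names all members, up to 4 called genes per list and comparison, the 4 genes most correlated with a member called in the cytoplasm, and Skiv2l2; Csrnp1, Prdx2, Ergic1 and the cell markers were named after their values were seen. Alternatives were another pseudocount, filter, scaling, weighting, block or set of libraries.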

Additional observations from a re-analysis of the deposited data

Results flagged for a closer look

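The libraries of Dusp1 lay in opposite directions between the genotypes in the 2 compartments, without any of the tests passing. Dusp1 was at 21.1, 21.4 and 24.7 FPKM in nuclei labelled Mtr4-null, all above the 15.9, 8.76 and 14.6 FPKM of WT nuclei. It was at 43.0, 34.0 and 28.6 FPKM in Mtr4-null cytoplasms, all below the 47.4, 45.8 and 60.6 FPKM of WT cytoplasms. The difference of the log2 fold changes, nucleus minus cytoplasm, was 1.31 ± 0.44, and its test did not pass the threshold (limma adjusted p = 0.27), nor did those in the nucleus (0.20) and the cytoplasm (0.55). Replicate 1 of the nuclei labelled Mtr4-null goes against its label by Skiv2l2, and without it the difference was 1.35 (adjusted p = 0.22).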

How the results depend on the processing

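Brackets after counts of members give the share of all genes called. Between the cytoplasms, 1 member was called (1.88%). With no filter (0.712%), median-of-ratios scaling (1.61%) or quantile normalization (0.790%), 0 were. The cytoplasms alone called 3 (23.2%) and library weights 4 (36.5%). Leaving out single libraries gave 0 to 2 (0.426 to 4.67%). Doing so with the cytoplasms alone, which was chosen after seeing the data, gave 2 to 3 (8.54 to 23.7%). Ier2 was not called at 2.83 (limma adjusted p = 0.053) with median-of-ratios scaling, 3.06 (0.066) with no filter and 2.51 (0.11) with quantile normalization. Between the nuclei 0 members were called (2.26%), and 1 with median-of-ratios scaling (10.9%) and 2 with quantile normalization (8.66%). Leaving out single libraries gave 0 to 3 (0.950 to 10.2%). Between WT nucleus and cytoplasm 3 were called (57.1%), 1 with quantile normalization (24.8%) and 2 with median-of-ratios scaling (30.7%). The 2 were Dusp1 and, higher, Ier2 (1.90, limma adjusted p = 0.045). With no filter 3 were called (38.9%), namely Btg2, Dusp1 and Fos, which is otherwise untested and listed at 0 in WT nuclei. Leaving out single libraries gave 2 to 4 (43.5 to 65.4%), and 3 to 5 with these libraries alone (56.7 to 70.7%). Between Mtr4-null nucleus and cytoplasm 0 were called (32.2%), and 4 with library weights (63.4%). Leaving out single libraries gave 0 to 3, the 3 without Mtr4-null nucleus replicate 3 (64.8%). For the difference of effects, 0 were called and 1 with library weights (7.30% of all genes). The cause was not tested. The Egr1 call in WT was also lost with pseudocount 0.1, no filter or either scaling; Btg2 was lost with median-of-ratios (-1.28, adjusted p = 0.051) and Dusp1 with quantile normalization (-0.73, 0.054).

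These log2 fold changes, none of them called, turned direction. With library weights, Zfp36 was 0.19 between cytoplasms, and Ier2 -0.54, Egr1 0.077, Atf3 -0.20 and Skiv2l2 0.089 between nuclei. Without replicates 1 and 3, Zfp36 was 0.023 between nuclei, Junb 0.025 between Mtr4-null nucleus and cytoplasm, and Egr1 -1.06 and Zfp36 0.078 for the difference of effects. In WT nucleus against cytoplasm, Atf3 was -0.20 with pseudocount 0.1, Zfp36 0.67 with median-of-ratios, and Junb -0.34 and Atf3 -0.19 with quantile normalization. In Mtr4-null nucleus against cytoplasm, Junb was 0.43, Atf3 0.086 and Dusp1 0.29 with median-of-ratios, and Junb 0.22 and Dusp1 0.32 with quantile normalization. The difference of effects was 0.033 for Junb and -0.13 for Egr1 with median-of-ratios, and 0.56 for Junb with quantile normalization. Leaving out single libraries, the cytoplasms gave -0.50 to 0.016 for Egr1, -0.24 to 0.24 for Btg2 and -0.27 to 0.18 for Zfp36. The nuclei gave -0.53 to 0.42 for Egr1 and -0.28 to 0.42 for Atf3. WT nucleus against cytoplasm gave -0.072 to 0.15 for Junb, -0.12 to 0.59 for Atf3 and -0.28 to 0.082 for Zfp36, Mtr4-null gave -0.69 to 0.30 for Junb, and the difference of effects -0.72 to 0.26 for Junb and -0.22 to 0.73 for Egr1. With the libraries of a comparison alone, single libraries left out gave other turned values of -0.045 for Btg2 and 0.14 for Zfp36 between cytoplasms, 0.014 for Egr1 between nuclei, and -0.027 and -0.023 for Junb in WT nucleus against cytoplasm.

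Median-of-ratios scaling moved the median of all genes to 0.03 in WT and -0.03 in Mtr4-null nucleus against cytoplasm, and the share higher among called genes to 67.8% and 94.8%, beside 21.1% and 12.7%. Quantile normalization gave 50.8% and 84%, and between nuclei 43.7% beside 22.8%. Between cytoplasms, Nfkbiz was not called with quantile normalization (-1.99, adjusted p = 0.053), nor Dusp4 with pseudocount 0.1 (0.14), no filter (0.052), median-of-ratios (0.081) or quantile normalization (0.07). Replicate numbers were not taken to pair the libraries, since not every same-numbered pair correlated over 0.1: 0 of 3 did between cytoplasms, 1 of 3 between nuclei, 0 of 3 in WT and 2 of 3 (0.303 and 0.117) in Mtr4-null nucleus against cytoplasm. With a replicate block, 1 member was called between cytoplasms (2.49% of all genes) and 0 between nuclei (2.87%). Nucleus against cytoplasm then had 3 called in WT (60.2%) and 0 in Mtr4-null (42.1%), and the difference of effects 0.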
